A study of Sus scrofa with 12 samples.

Results

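The comparison is that of the jejunum (the middle part of the small intestine) at 28 days of age with the jejunum at 21 days, read for the differences that piglets of control sows and piglets of resveratrol-fed sows had in common. It uses all 12 RNA-seq libraries of the series, 6 at each age, in 4 groups of 3 piglets. The libraries of the comparison were chosen by their labels alone, though the comparison itself was chosen with earlier results of these data known. W_Con and W_Res were taken at 21 days, the day of weaning, from litters of control sows and of sows whose corn and soybean meal diet held 300 mg/kg resveratrol, a plant polyphenol, from 20 days after breeding to the end of lactation. PW_Con and PW_Res were taken from the same 2 kinds of litters at 28 days, 7 days after the sows had been removed and milk had ended. The sources differ on the animals. The series description has sows bred with pooled Landrace semen, piglets cross-fostered within their diet and no change of pen after weaning, while the study's methods give the control piglets as males of Yorkshire × Duroc litters that went to a nursing room at weaning. Therefore 7 days of age, the end of milk, a week on solid feed and any new room cannot be told apart. The study's methods took a male control piglet from each litter at both ages. Which libraries shared a birth litter was not given. The values are FPKM, a level scaled to transcript length and to library size (fragments per kilobase of exon and per fixed number of mapped reads). A difference below is the mean of log2(FPKM + 1) at 28 days minus that at 21 days with maternal diet as a covariate, given with its standard error (SE), and on this scale the change of a gene near 0 FPKM comes out too small.

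As background, the enterocyte of a suckling piglet takes up milk fat, packs it into chylomicrons with apolipoproteins and burns part of it in mitochondria and peroxisomes, and after weaning the same cells meet starch, plant protein and a new microbiota. The epithelium is held together by desmosomes, whose plakoglobin and plakophilins tie keratin filaments to the membrane. Interferon-stimulated genes are a set of antiviral effectors and sensors that cells switch on together when type I or type III interferon is present, with IRF7 as one of its transcription factors. Metallothioneins bind zinc and copper in the cytosol, and their transcription is known to follow the zinc that enters the cell.

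Before the results, 4 features of the libraries have to be given. W_Res2 and W_Res3, both at 21 days, stood apart: 21819 and 19495 of their loci were above 1 FPKM, against 12839 to 16061 in the other 10 libraries, and unnamed loci held 8.47% and 8.02% of their summed FPKM, against 5.48% to 6.81%. Across 12886 genes, which are not independent replicates, Pearson's r between libraries was 0.860 to 0.961. Genes that mark the position along the gut differed between libraries, and whether the sampled site differed was not tested. A score of 11 tested genes of the distal small intestine and colon minus 9 of the proximal small intestine was -3.57 in W_Con3 and -2.76 in W_Res2 at 21 days, -1.57 in PW_Res2 and -2.23 in PW_Res3 at 28 days, and -0.17 to 1.85 in the other 8 libraries. FABP6, the ileal bile acid-binding protein, ran from 9.10 to 8054 FPKM at 21 days and from 1.70 to 24110.0 FPKM at 28 days. Low scores were thus found at 21 days in control litters and mostly at 28 days in resveratrol litters. The smooth muscle score, over 13 genes, was 1.74 in W_Res1 and 2.58 in W_Res2 and between -1.60 and 0.03 in the other libraries, as the plot of scores by library shows. The summed level of its 13 genes was 209 to 5550 FPKM at 21 days and 248 to 828 FPKM at 28 days, and none of them was at 0 in every library. Intestinal epithelium, of whichever segment, was present in every library. The villus actin-bundling protein VIL1 was at 296 to 1022 FPKM at 21 days and 545 to 1062 FPKM at 28 days. In bulk tissue, fewer cells of a type and less RNA per cell cannot be told apart.

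**Figure D1:**
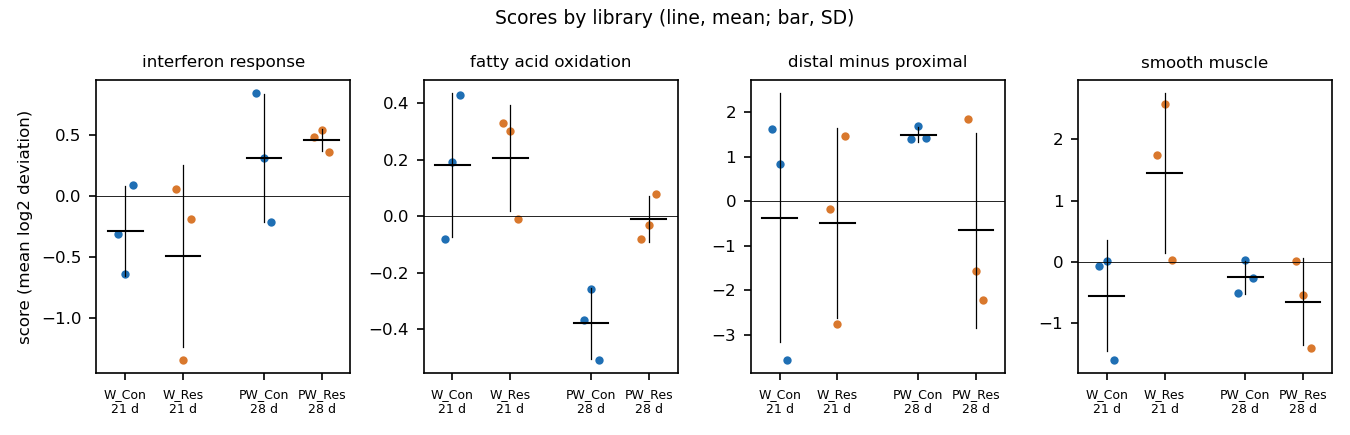
Scores of 4 gene lists in each library (vertical axis, mean over the list of the log2 value minus its mean over the 12 libraries) by group on the horizontal axis, blue for control and orange for resveratrol litters, with the mean (line) and SD (bar) of the 3 libraries. The interferon scores at 28 days lay between -0.21 and 0.84 and those at 21 days between -1.34 and 0.09, while the distal minus proximal and smooth muscle scores vary among libraries of the same age.

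Few genes passed a test over all genes. With limma and Benjamini-Hochberg adjustment over the 12886 genes tested, 8 genes (0.0621%) had an adjusted p under 0.05 for age, 5 higher and 3 lower at 28 days, and an adjusted p under 0.1 was reached by 133, 83 higher and 50 lower. The standard the study states for its own comparison, an unadjusted P under 0.05 with a log2 fold change above 1 or below -1, was met by 92 genes (0.714%) that were higher and 81 (0.629%) that were lower at 28 days. Unadjusted P was under 0.05 for 5.96% of genes in the higher and 11% in the lower direction. With the 12 libraries rescaled by the median of ratios, the called genes were 83 higher and 9 lower and those at the study standard 117 higher and 53 lower. Quantile normalization gave 25 higher and 4 lower, and 104 higher and 56 lower. The median difference of all genes was -0.10 as deposited, with -0.01 in control and -0.15 in resveratrol litters. Over both sets it was -0.02 after median-of-ratios and -0.01 after quantile normalization. All 6 libraries at 28 days lay above all 6 at 21 days for 0.667% of genes and below them for 0.916%. Without W_Res2 and W_Res3, no gene had an adjusted p under 0.05 in limma, 1923 genes had an unadjusted P under 0.05, and 94 of the 173 genes at the study standard still met it, with the sign kept for 172.

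The 2 sets of litters share no library, so each can be read in the other. In control litters alone, 418 of 12611 genes (3.31%) met the study standard, and 62.0% of these had the same sign in resveratrol litters. For the 189 that were higher at 28 days in control litters, the median difference went from 1.24 there to 0.24 in resveratrol litters, with the same sign for 64.6%. For the 229 lower ones it went from -1.27 to -0.12, with the same sign for 59.8%. In resveratrol litters alone, 618 of 13013 genes (4.75%) met the standard, and 51.5% had the same sign in control litters. This share was uneven: 77.5% for the 129 higher genes, whose median difference was 1.44 in resveratrol and 0.56 in control litters, and 44.6% for the 489 lower genes, whose median was -1.21 and 0.04. Across all 12886 genes, 54.4% had the same sign in both sets, 18.7% positive and 35.6% negative in both, and the Pearson r of the 2 differences was 0.13 (Spearman's rho 0.09), given as a description because genes are not independent replicates. With 1 library left out, the share of the control-litter genes with the same sign was 55.8% (without PW_Con1) to 72.9% (without W_Con3). That of the resveratrol-litter genes was 44.5% (without W_Con1) to 71.0% (without W_Con3). The age-by-diet interaction had no adjusted p under 0.05 in limma. Its unadjusted P was under 0.05 for 1770 genes (13.7%), and in an ordinary linear model with a library-size covariate for 637, with none called either.

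**Figure D2:**
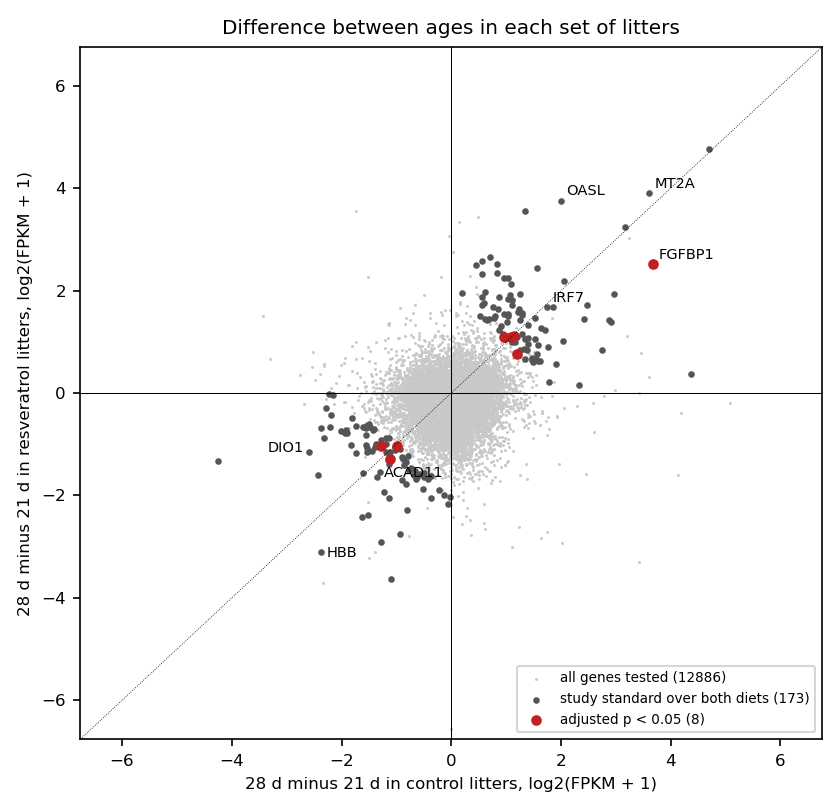
Each point is one of the 12886 genes tested, with its difference between 28 and 21 days in control litters on the horizontal and in resveratrol litters on the vertical axis, both on the log2(FPKM + 1) scale. The 8 genes called over both diets (red) and the 173 at the study standard (dark grey) lie to the upper right and lower left, a position that choosing them on the sum of both sets largely fixes, while the grey cloud of all genes shows little slope (r = 0.13).

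All 8 called genes had libraries that did not overlap between the ages, and in all 8 the difference had the same sign in both sets of litters. Choosing genes by the difference over both sets favours both traits. All 173 genes at the study standard had the same sign in both sets, and 30 of them did not overlap. FGFBP1, a carrier that releases fibroblast growth factors from the matrix, had 0.0448 to 3.92 FPKM at 21 days (median 1.95) and 6.66 to 126 FPKM at 28 days (median 17.0). It rose by 3.10 ± 0.44 (SE; adjusted p = 0.0321, limma), with 3.68 in control and 2.52 in resveratrol litters. The highest values were those of PW_Con and the lowest those of W_Res2 and W_Res3. JUP, plakoglobin, the catenin of desmosomes and adherens junctions, went from 23.4 to 32.6 FPKM (median 30.2) to 47.3 to 71.0 FPKM (median 63.8). Its rise of 1.03 ± 0.14 (adjusted p = 0.0321) was 0.97 in control and 1.09 in resveratrol litters, so the 2 sets were nearly equal. MISP, an actin-bundling protein of the mitotic spindle and the brush border, rose from a median of 97.2 FPKM (56.3 to 112) to 199 FPKM (156 to 239), by 1.09 in each set of litters. TCIRG1, a membrane subunit of the vacuolar proton pump, rose from a median of 3.98 FPKM (3.03 to 5.28) to 9.50 FPKM (7.33 to 10.2), a difference of 0.98 ± 0.14 (adjusted p = 0.0321). The fifth was ENSSSCG00000028887, without a symbol in the tables used, at 5.57 to 11.3 FPKM and then 12.4 to 23.6 FPKM, a rise of 1.13 ± 0.15.

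Of the 3 called genes that fell, ACAD11 and ABHD5 are known to act in fat use. ACAD11, an acyl-CoA dehydrogenase that oxidises long-chain and hydroxylated fatty acids, had 4.56 to 11.5 FPKM at 21 days (median 8.69) and 1.54 to 4.53 FPKM at 28 days (median 3.37). It fell by 1.21 on the log2 scale (SE 0.18, adjusted p = 0.0325, limma), with -1.12 in control and -1.29 in resveratrol litters. ABHD5, the coactivator of adipose triglyceride lipase at lipid droplets, was at 9.28 to 15.2 FPKM (median 11.9) and then 3.99 to 7.05 FPKM (median 5.42), a fall of 1.01 that was -0.99 and -1.04 in the 2 sets. ENSSSCG00000030631, which the deposited annotation places among hydrolases of glycosidic bonds, went from a median of 4.14 to 1.42 FPKM. Each of the 8 kept its direction in the 12 fits that left out 1 library. However, the adjusted p stayed under 0.05 in 4 to 6 of those fits and was 0.118 to 0.126 at most. Without W_Con2, W_Res2, PW_Con2, PW_Res2 or PW_Res3 alone it was above 0.05 for all 8. It was also above 0.05 for all 8 with Ballgown's library-size covariate (0.0947 to 0.123) and with a replicate block (0.174 to 0.196). The same held with the smooth muscle score as a covariate (0.0777) and with no filter on low values (0.0551 to 0.0553). For the 3 genes that fell, it was above 0.05 with the distal minus proximal score as a covariate (0.0515). With both scores as covariates ENSSSCG00000028887 alone of the 8 was called (adjusted p = 0.0405, limma).

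**Figure D3:**
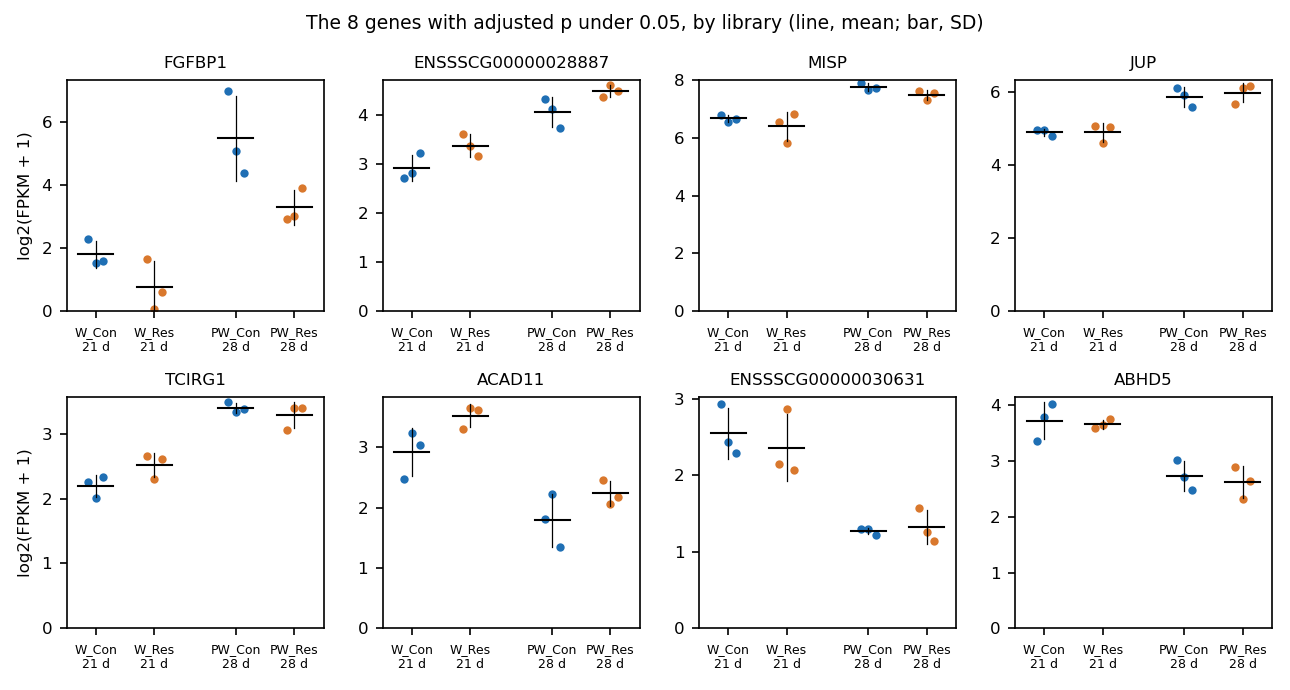
log2(FPKM + 1) of the 8 called genes (vertical axis) in each library by group, blue for control and orange for resveratrol litters, with the mean (line) and SD (bar) of 3 libraries. In every panel the 6 libraries at 28 days lie on one side of the 6 at 21 days, and FGFBP1 has the largest spread at 28 days, from 6.66 to 126 FPKM.

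A stricter reading of "shared" asks for the study standard in each set of litters on its own. This held for 35 genes with the same sign, 26 higher and 9 lower at 28 days, and the rule that picks them fixes their agreement. Another 7 genes met it in both sets with opposite signs. Of the 26, 17 have a symbol and average 1 FPKM or more, and of the 9, 8 do. The 3 largest differences were in genes annotated as metal binding. MT2A, a metallothionein, had 4.73 to 58.6 FPKM at 21 days (median 9.70) and 20.5 to 1149 FPKM at 28 days (median 212). Its difference was 3.75 ± 0.66 (adjusted p = 0.0554), 3.61 in control and 3.90 in resveratrol litters, and the ages overlapped because PW_Con3 had 20.5 FPKM, under the 24.1 and 58.6 FPKM of W_Res2 and W_Res3. ENSSSCG00000023684 and ENSSSCG00000024911, annotated as metal ion binding in the deposited table, differed by 4.73 (median 2.92 and 138 FPKM) and 3.20 (median 0.536 and 20.5 FPKM). They were singled out after their values were seen, and whether they are metallothionein copies was not tested. If they are, reads that fit several near-identical copies may have been split among these 3 genes, which leaves each value uncertain. Others of the 35 were OASL, IRF7, DHX58, HSH2D and ISG12(A), the light chain segments IGLV-2 and IGLV-8, PKP3 and KRT19, FOS, the peptidoglycan-binding protein PGLYRP3, the sulfotransferase CHST4 (median 0.789 and 3.42 FPKM), the ubiquitin ligase NEURL3 (0.916 and 4.31 FPKM) and the transcription factor ETV4 (1.63 and 7.42 FPKM). Lower in both sets were DIO1, the deiodinase that activates thyroid hormone (median 9.06 and 1.51 FPKM), SLC39A4, SLC25A27, a mitochondrial carrier of the uncoupling protein family (12.4 and 4.76 FPKM), the RNA helicase DDX42 (16.7 and 6.05 FPKM), OGN, a proteoglycan of the matrix (3.73 and 1.29 FPKM), GPATCH2L and the cation exchanger SLC9B1 (2.22 and 0.273 FPKM).

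The interferon-stimulated genes were the list with the largest number of members higher at 28 days, with positive medians in both sets of litters. Of 29 tested members, 15 (51.7%, against 5.96% of all genes) were higher with an unadjusted P under 0.05, 3 were lower (10.3%, against 11%) and none had an adjusted p under 0.05 (0.0508 at the lowest). The median difference was 0.78, 0.70 in control and 0.78 in resveratrol litters, against -0.10 for all genes. In both sets 20 of the 29 were positive and 4 negative, against 18.7% and 35.6% of all genes. IRF7 was at 25.5 to 93.6 FPKM at 21 days (median 31.4) and 65.5 to 199 FPKM at 28 days (median 156), a difference of 1.72 ± 0.28 (adjusted p = 0.0508) that was 1.75 in control and 1.69 in resveratrol litters. The ages overlapped through W_Res1 and W_Res3, at 76.7 and 93.6 FPKM, and PW_Con3, at 65.5 FPKM. OASL, an antiviral protein of the oligoadenylate synthetase family, was at 2.59 to 75.2 FPKM and then 98.2 to 622 FPKM, without overlap. Its difference was 2.88 ± 0.67, with 2.00 in control and 3.76 in resveratrol litters. DHX58, an RNA sensor that modulates the RIG-I pathway, had a median of 10.2 FPKM at 21 and 37.1 FPKM at 28 days, and USP18, which removes ISG15 and damps the interferon receptor, 19.4 and 88.5 FPKM. OAS1, the most abundant member with GBP1, had a median of 193 and 452 FPKM.

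Among the other effectors and sensors, named after their values were seen, MX1 differed by 1.25 in control and 1.93 in resveratrol litters, MX2 by 1.07 and 1.92, IFIT3 by 1.08 and 2.12, RSAD2 by 0.88 and 1.88 and DDX58 (RIG-I) by 0.85 and 1.64. For these 5 and OASL the difference was larger in resveratrol litters, for OAS1 (1.34 and 1.05) and OAS2 (1.54 and 0.67) in control litters, and the interaction of age and diet called none of them. The 3 lower members were GBP1 (-0.70, median 227 and 130 FPKM), IRF1 (-0.56) and IDO1 (-0.66), each negative in both sets. The count of lower members was 1 after median-of-ratios scaling, without W_Res2 and W_Res3, and without W_Res3 or W_Con3 alone. The chemokines CXCL9, CXCL10 and CXCL11 had differences of 0.01, -0.35 and -0.08 with unadjusted P above 0.05. HSH2D (median 20.0 and 88.0 FPKM) and ISG12(A) (349 and 1399 FPKM), which were not on the list and were picked after their values were seen, differed by 2.00 and 1.49. W_Res2 had the lowest interferon score, -1.34, and PW_Con1 the highest, 0.84. The count of higher members was 10 of 29 without W_Res2 and W_Res3, with a median of 0.56, and 13 to 16 with any 1 library left out. It was 9 with the smooth muscle score as a covariate, a score that was high in W_Res1 and W_Res2. The part of tissue composition in this difference was not tested.

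**Figure D4:**
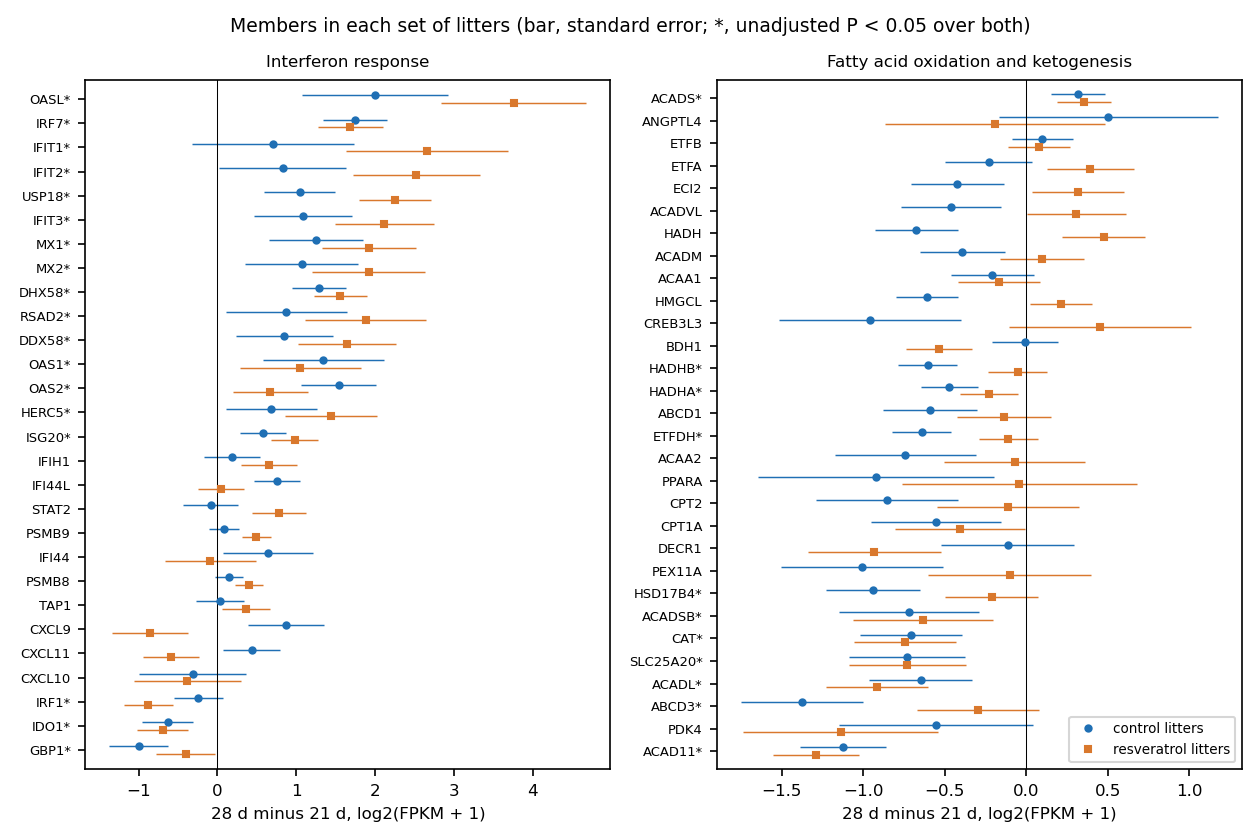
Difference between 28 and 21 days on the log2(FPKM + 1) scale (horizontal axis) for the tested members of the interferon list and of the fatty acid oxidation list except 1 of each, which is not reported, with control litters as blue circles and resveratrol litters as orange squares and bars for the standard error of the 12-library model. A star marks an unadjusted P under 0.05 over both sets, which 15 of the 29 interferon members met in the higher and 11 of the 31 oxidation members in the lower direction, the unreported ones included.

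In fatty acid oxidation, of 31 tested members, 11 (35.5%, against 11% of all genes) were lower with an unadjusted P under 0.05 and 1 was higher. ACAD11 was the one with an adjusted p under 0.05. The median difference was -0.38, against -0.10 for all genes. In control litters it was -0.61, against -0.01 for all genes. In resveratrol litters it was -0.14, near the -0.15 of all genes. Negative in both sets were 21 of 31 members, compared with 35.6% of all genes. Members with similar differences in the 2 sets were the mitochondrial acyl-CoA dehydrogenases ACADL (-0.65 in control and -0.92 in resveratrol litters, median 21.5 and 13.8 FPKM) and ACADSB (-0.72 and -0.63), SLC25A20, the carnitine-acylcarnitine carrier of the inner membrane (-0.73 in each), and catalase, CAT, which breaks down the peroxide made by peroxisomal oxidation (-0.70 and -0.74, median 106 and 58.3 FPKM). HADHA and HADHB, the trifunctional protein, had -0.47 and -0.60 in control litters and -0.23 and -0.05 in resveratrol litters. The member that was higher was ACADS, the short-chain dehydrogenase (0.32 and 0.36). CREB3L3, an activator of fasting genes, had -0.96 and 0.45. The count was 15 lower without W_Res2 and W_Res3, 7 without W_Con3, and 6 after median-of-ratios scaling and with a replicate block. In the scores by library, PW_Con1 to PW_Con3 lay from -0.51 to -0.26 and W_Con1 to W_Con3 from -0.08 to 0.43, while PW_Res overlapped W_Res.

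In fat absorption the list medians of the sets lay farther apart, at -0.58 in control and 0.01 in resveratrol litters. Of 19 tested genes 7 (36.8%, against 11% of all genes) were lower and 2 (10.5%, against 5.96%) higher at an unadjusted P under 0.05. No member was higher without W_Res2 and W_Res3, without W_Res2, PW_Con2, PW_Res1, PW_Res2 or PW_Res3 alone, or after quantile scaling, while the lower count was 5 to 8 with 1 library left out. FABP2, the intestinal fatty acid-binding protein, had a median of 359 FPKM at 21 and 126 FPKM at 28 days, with -2.20 in control and -0.43 in resveratrol litters. APOA1, an apolipoprotein of chylomicrons and HDL, was at 3586 to 10667 FPKM and then 702 to 8669.8 FPKM (-1.74 and -0.64), and APOC3 had -1.74 and -1.18. FABP1 (median 4819 and 2534 FPKM) had -2.11 in control and 0.19 in resveratrol litters, and MTTP, which loads lipid onto apolipoprotein B, -1.86 and 0.16. Among the members named here, the 2 sets lay closest for ABCA1, the cholesterol exporter (-0.90 and -0.56), and LIPA, the lysosomal acid lipase (-0.58 and -0.62, median 27.0 and 17.0 FPKM). In control litters the distal minus proximal score was lowest in W_Con3 and 1.40 to 1.69 in the PW_Con libraries, and with that score as a covariate 7 members were lower and 1 higher.

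In the synthesis of fatty acids and cholesterol, the members that passed were higher at 28 days. Of 21 tested genes 6 (28.6%, against 5.96% of all genes) were higher with an unadjusted P under 0.05 and none was lower. No member had an adjusted p under 0.05. The median was 0.17, with 0.05 in control and 0.28 in resveratrol litters. Positive in both sets were 13 of the 21, against 18.7% of all genes. The fatty acid synthase FASN had 5.44 to 18.3 FPKM at 21 days and 14.4 to 23.5 FPKM at 28 days (1.13 in control and 0.69 in resveratrol litters). LSS, lanosterol synthase, had 0.76 and 0.54, and DHCR7, the last step to cholesterol, 0.75 and 0.51. INSIG1, a sterol sensor that holds back this pathway, had a difference of 0.03. Without W_Res2 and W_Res3 the list had 3 higher, 1 lower and a median of 0, and the higher count was 2 without PW_Res3 and 3 without W_Res3 alone. In a list of lipid droplet genes made after the values were seen, 3 of 7 (42.9%, against 11%) were lower: ABHD5, LIPA and MGLL, the monoglyceride lipase (-0.13 in control and -1.99 in resveratrol litters).

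Among 17 tested genes of calcium, iron, zinc and copper handling, 6 (35.3%, against 11% of all genes) were lower and 1 (5.88%, against 5.96%) was higher with an unadjusted P under 0.05. The list median was -1.21 in control and 0.01 in resveratrol litters, and 3 members were lower without the 4 libraries of lowest distal minus proximal score. The higher member was MT2A. SLC39A4, the zinc importer of the apical membrane, was lower without overlap, at 12.8 to 28.0 FPKM at 21 days (median 17.5) and 3.77 to 11.1 FPKM at 28 days (median 8.09). Its difference was -1.53 in control and -1.16 in resveratrol litters (adjusted p = 0.0650). The zinc-binding and the zinc-importing gene thus differed between the ages in opposite directions, each with the same sign in both sets. The zinc exporter SLC30A1 had 0.45 and 0.01. TRPM6, a magnesium channel (median 1.98 and 0.758 FPKM), SLC39A14 (-0.44 in each set) and the iron exporter SLC40A1 (-1.92 and -0.73) were also lower. S100G, calbindin of the enterocyte, had -3.31 in control and 0.67 in resveratrol litters.

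Epithelial junction and keratin genes were looked at after JUP had been called, so their count has no test behind it. Of 15 tested, 5 (33.3%, against 5.96% of all genes) were higher with an unadjusted P under 0.05, JUP itself among them, and none was lower. PKP3, the plakophilin that binds plakoglobin in the desmosome, was at 20.6 to 54.2 FPKM and then 66.0 to 220.4 FPKM, without overlap, with 1.10 in control and 1.82 in resveratrol litters. KRT8, the type II keratin of simple epithelia, went from a median of 838 FPKM (592 to 1136) to 1617 FPKM (1248 to 2709), and KRT19, one of its type I partners, from 278 FPKM (168 to 455) to 656 FPKM (407 to 809). Periplakin, PPL, had 0.67 and 0.52. The other desmosomal members were within 0.20 of 0 over both sets, DSP at 0.20, PKP2 at 0.19 and DSG2 at 0.06. KRT20, a keratin of differentiated villus cells, had -0.20 in control and 0.96 in resveratrol litters.

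Immediate early genes, grouped in the same way after the fact, had 4 of 16 higher (25.0%, against 5.96% of all genes) and none lower. The count was 8 without PW_Res3, and 6 without PW_Res2, without W_Res2, without W_Res2 and W_Res3 together and after either rescaling. FOS was at 5.11 to 16.8 FPKM at 21 days and 20.8 to 28.0 FPKM at 28 days (1.03 in control and 1.50 in resveratrol litters), and KLF4, a transcription factor of differentiated epithelium, at 12.1 to 15.9 and 18.5 to 22.7 FPKM with 0.58 in each set. Both were without overlap. JUN had 0.38 and 0.47 and ZFP36 0.35 and 0.71. A list of serine and one-carbon synthesis was also made after values were seen. Of its 10 tested genes 2 (20%, against 5.96% of all genes) were higher and none lower at an unadjusted P under 0.05. PHGDH, the first enzyme of serine synthesis, had a median of 1.10 FPKM at 21 and 10.8 FPKM at 28 days (2.91 and 1.38). The asparagine synthetase ASNS, which the list also holds, had 5.51 and 16.3 FPKM (1.38 and 0.83).

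Of the 15 tested B cell and plasma cell markers, 2 (13.3%, against 5.96% of all genes) were higher and 1 (6.67%, against 11%) lower at an unadjusted P under 0.05, with a median of 0.78 in control and -0.14 in resveratrol litters. With 1 library left out, 1 to 3 of these markers were higher and 0 to 2 lower. Without the 4 libraries of lowest distal minus proximal score, 0 were higher. The summed level of these markers was 191 to 297 FPKM at 21 and 220 to 399 FPKM at 28 days. The B cell score was 1.56 in PW_Con2, and CD79A and JCHAIN, the most abundant members, had differences of 0.10 and 0.47 that did not pass. Immunoglobulin light chain segments were put in a list after their values had been seen. All 6 tested were positive in both sets of litters, as were 18.7% of all genes, and 4 (66.7%, against 5.96%) had an unadjusted P under 0.05. IGLV-2 was at 11.4 to 38.2 FPKM at 21 days and 62.1 to 200.2 FPKM at 28 days, IGLV-8 at 2.31 to 10.4 and 11.7 to 41.0 FPKM, and neither overlapped. The constant segment IGLC went from a median of 305 to 923 FPKM, with 1.90 in control and 0.57 in resveratrol litters, and IGKV-7 from 88.4 to 158 FPKM. Segments share sequence, so reads may have been split among them. Of 9 tested blood and endothelium genes 3 (33.3%, against 11% of all genes), HBB, ALAS2 and the endothelial receptor TEK, were lower. This count was 7 without W_Con3, 6 without PW_Con1 and 1 without W_Res2, and 6 both with the distal minus proximal score as a covariate and without the 4 libraries where that score was lowest. HBB, the beta chain of haemoglobin, was at 30.3 to 130.1 FPKM and then 0.639 to 47.6 FPKM, with -2.38 in control and -3.11 in resveratrol litters. The erythroid enzyme ALAS2 had -0.70 and -0.76. The endothelial marker PECAM1 had -0.15 and -0.77, with an unadjusted P above 0.05.

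Of 24 tested fibroblast and matrix genes, 11 (45.8%, against 11% of all genes) were lower with an unadjusted P under 0.05. In both sets 15 were negative, against 35.6% of all genes, and the median was -0.19 in control and -1.02 in resveratrol litters. COL3A1, a fibrillar collagen, had -0.82 and -1.35 (median 287 and 160 FPKM), SPARC -0.45 and -0.93, and FN1, fibronectin, -0.80 and -2.28. The summed level of the list was 475 to 3390 FPKM at 21 days and 581 to 1110 FPKM at 28 days. Without W_Res2 and W_Res3, 4 of 24 were lower and the median was -0.39. With the smooth muscle score as a covariate 5 were lower, with a median of -0.24, and with both scores 4. The count was 19 without W_Con3, 6 without W_Con1, W_Res2, PW_Res2 or PW_Res3, and 7 without W_Con2 or PW_Con3. Of 13 smooth muscle genes, 2 (15.4%, against 11%), SYNM and CALD1, were lower. Negative in both sets were 3 of the 13, against 35.6% of all genes. With 1 library left out the lower count was 1 to 11, with 11 without W_Con3, 4 without W_Res3 and 1 without W_Res1 or W_Res2, the libraries of high muscle score. The list had a median of 0.33 in control and -2.17 in resveratrol litters, with ACTG2 at 20.4 to 1248 FPKM at 21 days and 22.2 to 135 FPKM at 28 days and TAGLN at 59.9 to 1525 and 84.2 to 188 FPKM. These 2 genes were high in W_Res1 and W_Res2 alone. TACR2, the neurokinin receptor of intestinal muscle, had -0.83 and -1.78. Enteric neuron and glia genes had 1 of 12 lower (8.33%, with 6 of 12 without W_Con3, 2 without PW_Con3 and 3 without the 4 libraries of lowest distal minus proximal score) and a median of 0.17 and -0.93, with UCHL1 at -0.65 and VIP at -0.53.

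Among the other genes with non-overlapping ages at the study standard (30 in all, 19 higher and 11 lower) were TRAIP, a ubiquitin ligase of the replication fork (median 10.7 and 23.1 FPKM), and RABIF, a Rab exchange factor, both higher. RABIF was low in W_Res1 and W_Res3 alone, at 1.67 and 3.13 FPKM, with 0.19 in control and 1.95 in resveratrol litters. Lower were ENPP3, an ectonucleotidase of the brush border (30.5 and 14.8 FPKM), TSHZ2 (1.41 and 0.210 FPKM), GPATCH2L (2.52 and 0.315 FPKM) and ARFIP1 (12.3 and 5.94 FPKM).

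The plot of pathway medians gives the counts of all 20 pathway lists. Of 22 xenobiotic and retinoid enzymes 7 (31.8%, against 11% of all genes) were lower and 1 higher. Negative in both sets were 12 of the 22, against 35.6% of all genes. The lower count was 3 without W_Res2 and W_Res3, 4 without W_Con3 and after quantile scaling, and 10 without W_Res1. The higher one was CYP1A1, a target of the aryl hydrocarbon receptor, with 0 to 6.33 FPKM at 21 days and 0.337 to 36.3 FPKM at 28 days (2.97 in control and 1.93 in resveratrol litters), and its receptor AHR had -0.51 and -0.34. In a list of 4 tested receptor targets made after the values were seen, CYP1A1 was the 1 higher (25%, against 5.96% of all genes). AHR was the 1 lower (25%, against 11%). Lower were NR1I3, the xenobiotic receptor CAR (-1.39 and -1.06), and RETSAT (-0.91 and -0.45), while GSTO1 and ALDH1A1 were the most abundant. Bile acid handling had 2 of 8 higher (25.0%, against 5.96% of all genes): SLC51A, a basolateral bile acid exporter (1.26 and 0.73, median 82.0 and 175 FPKM), and ABCC3 (0.64 and 0.70). The count was 1 without W_Con2, W_Con3, W_Res2, PW_Con1, PW_Con2 or PW_Res1, and the list median of 0.83 was 0.13 without PW_Res1, 0.37 without W_Con3, 0.19 with the distal minus proximal score as a covariate and -0.05 with both scores. Ion and water transport had 4 higher and 4 lower of 21 (19.0% each, against 5.96% and 11%), among them AQP10, a water and glycerol channel (-2.42 and -1.59, median 13.8 and 1.51 FPKM), SLC4A4, a bicarbonate carrier (-1.20 and -0.88), CA2 (-0.51 and -0.34) and the chloride channel CLCN2 (0.18 and 0.79), with GUCA2A among the most abundant members. The higher count was 2 without W_Con1, without PW_Con1, without W_Res2 and W_Res3 together and with the smooth muscle score, and the lower count 2 after quantile scaling.

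The lists that follow had few members past an unadjusted P of 0.05, and their shares are to be read against 5.96% of all genes higher and 11% lower. Antioxidant enzymes had 3 higher (14.3%) and 1 lower (4.76%) of 21, GPX2 (1.39 and 1.33), FDXR (0.91 and 0.19) and SOD3 (1.83 and -0.06) being higher and CAT lower, while the abundant SOD1 and PRDX2 had 0.08 and -0.08. The higher count was 1 without W_Con3 or W_Res3. Epithelial defence had 2 higher (10.5%) and 1 lower (5.26%) of 19, each 1 to 2 with 1 library left out: PGLYRP3 (1.54 and 1.05) and LCN2 were higher and LBP, the lipopolysaccharide-binding protein (median 82.9 and 42.9 FPKM), was lower, and DMBT1 and LYZ had SE of 0.84 and 0.77. Goblet cell genes had TFF3 higher (1.26 and 0.84, median 487 and 998 FPKM) and RETNLB lower (-0.69 and -1.23) of 8 (12.5% each), with CLCA1 at -0.07. Among 15 enteroendocrine genes GIP, the incretin of the proximal gut, was lower in both sets (-1.38 in control litters, median 104 and 50.5 FPKM over both; 6.67%) and GCG had 0.34. In the proximal list, 1 of 9 was lower (11.1%) and in the distal list 1 of 11 higher (9.09%). With 1 library left out these counts were 1 to 2 and 0 to 2, and with both scores as covariates 3 members of each list were lower. Hexose use had 2 lower of 12 (16.7%, with 4 without W_Res1 and 1 without any of 7 other libraries), GALT of galactose use (-0.64 and -0.92, median 43.2 and 22.4 FPKM) and PCK1 (-1.13 and -2.06), with the glucose carrier SLC5A1 at -1.25 and 0.24. Brush border hydrolases had 2 lower of 17 (11.8%), ACE (-1.82 and -1.02) and MME (-1.22 and -0.67), with ANPEP at -0.15 and NAALADL1 at 0.64. That count was 0 after median-of-ratios scaling and without W_Con2, W_Res3, PW_Con3, PW_Res2 or PW_Res3, 1 without W_Con3, 4 without W_Res2 or PW_Res1, 5 with the distal minus proximal score as a covariate and 8 with both scores.

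Peptide and amino acid transporters had 2 higher (11.8%), SLC6A19 and SLC6A6, and 1 lower (5.88%), SLC38A2, of 17, with SLC15A1, the peptide carrier, at -0.94 and 1.08. The higher count was 0 without W_Res2 or PW_Con2 and 4 after median-of-ratios scaling, and the lower count 5 with both scores as covariates. Amino acid and urea cycle enzymes had 2 higher (9.09%) and 3 lower (13.6%) of 22, and 4 and 0 after median-of-ratios scaling. PHGDH and ASNS were the higher ones, and OAT (-0.89 and -0.51), CPS1 (-1.10 and -0.31) and ALDH18A1 (-0.89 and -0.30) the lower ones, with ASS1 at -0.23. Glycolysis had PFKL higher (0.87 and 0.25) and LDHA lower (-1.09 and -0.18) of 15 (6.67% each), with GAPDH at 0.39 and ENO1 at 0.51. It had 5 higher and 0 lower with the distal minus proximal score as a covariate, 3 and 0 after median-of-ratios scaling, 3 higher without W_Res1, and no member lower in 9 of the 12 fits that left out 1 library. The respiratory chain had 3 of 45 higher (6.67%), COX8A (1.31 and 0.62), ATP5D (0.52 and 0.43) and NDUFV1 (0.43 and 0.55), with ATP5B at 0.17 and ATP5A1 at 0.02. Without W_Res2 and W_Res3 it had 1 higher and 6 lower, and 1 higher without W_Con1, W_Res2, W_Res3 or PW_Res3 alone, while 6 were higher with the distal minus proximal score as a covariate. Endoplasmic reticulum folding had 1 higher, SYVN1, and 1 lower, EIF2AK3, of 29 (3.45% each), with CALR at 0.20 and HSPA5 at 0.18. With 1 library left out it had 0 to 6 higher, with 6 without W_Res1 and 4 without PW_Res1, and 0 to 3 lower, with 3 without PW_Res3. Suckling-stage epithelium had 1 of 18 lower (5.56%, with 3 without W_Res1 or PW_Res1 and with the smooth muscle score, and 6 with both scores), DAB2, an endocytic adaptor of the neonatal gut (-0.40 and -0.95), with CTSB at -0.19. PER1, a clock gene that glucocorticoids induce, was higher (1.47 and 0.64, median 10.6 and 24.7 FPKM), the only one of 13 clock genes (7.69%) at that level in the reported fit, and NFIL3 had 0.39. In the glucocorticoid and thyroid list it was 1 of 13 higher and DIO1 1 lower (7.69% each, and 3 higher without W_Res3), with DUSP1 at 0.40 and SGK1 at 0.01. Of 15 vacuolar proton pump subunits, a list made after TCIRG1 was called, 2 were higher (13.3%), TCIRG1 among them, and 4 lower (26.7%), among them ATP6V1A (-0.54), ATP6V1D (-0.35) and ATP6V1B2 (-0.27). The lower count was 1 after median-of-ratios scaling and 2 without W_Con1 or PW_Con2.

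**Figure D5:**
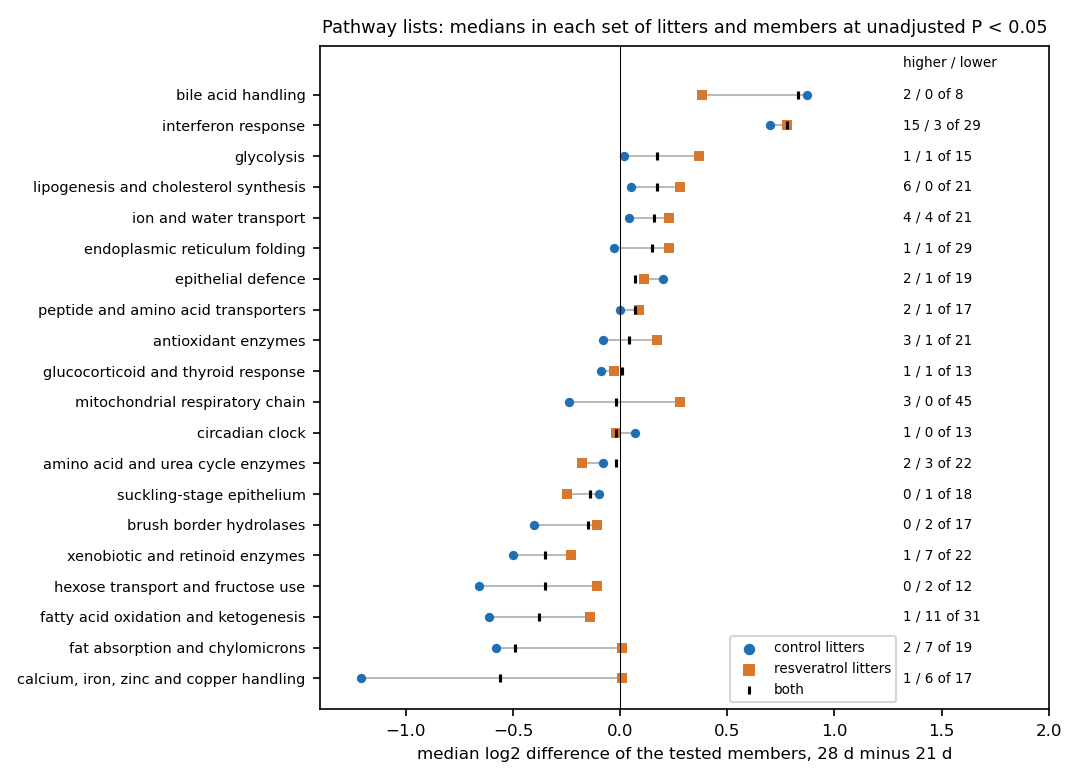
Median difference between 28 and 21 days of the tested members of each of the 20 pathway lists (horizontal axis, log2 scale) in control litters (blue circles), resveratrol litters (orange squares) and both (black ticks), with the number of members higher and lower at an unadjusted P under 0.05 on the right. Interferon response has medians of 0.70 and 0.78 in the 2 sets, while the mineral and fat absorption lists are negative in control litters and at 0.01 in resveratrol litters.

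Among the other cell lists, crypt and cell division had none of 19 genes with an unadjusted P under 0.05 in limma (MKI67 at 0.28, OLFM4 at -0.21), but 4 higher without W_Res1, 2 after median-of-ratios scaling and 3 with both scores as covariates. T cells and cytotoxic lymphocytes had 2 of 27 lower (7.41%; CD3E at -0.32, GZMA at -0.22), with 4 without W_Con2 or W_Res1 and 5 without PW_Res1. Myeloid cells had 1 higher (7.14%) and 2 lower (14.3%) of 14 (C1QC at 0.12), and 3 higher without W_Res2. The villus brush border list had 3 higher (23.1%), SLC9A3R1 (0.98 and 0.71), MYO7B and EPS8L3, and 1 lower (7.69%), TM4SF20 (-1.58 and -0.35), of 13. Its higher count was 1 without W_Con1, W_Con3 or W_Res2 and 6 without W_Res3. The pancreatic list, CELA2A and CLPS, was near or under 1 FPKM in the median at both ages, with no P under 0.05, and the proximal marker CCL25 was at 0.07.

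Genes with opposite signs in the 2 sets set the limit of what was shared. The 5 with a symbol and the smallest interaction P had an adjusted p of 0.251, so none is shown to differ between the diets. SS18L2, a component of chromatin remodelling complexes, was at 35.6 to 51.6 FPKM in W_Con and 12.0 to 15.8 FPKM in PW_Con, a difference of -1.49, and had 0.63 in resveratrol litters. GAS6, a ligand of TAM receptors, had 0.63 in control and -1.21 in resveratrol litters, SLC39A13, a zinc carrier of the secretory pathway, 1.49 and -0.34, C11orf68 1.05 and -0.40 and CFAP100, a ciliary protein, 0.13 and -1.52.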

How the data were processed

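Jejunum RNA of 12 piglets was sequenced as paired-end poly(A) libraries. The authors aligned the reads to the pig genome (TopHat in the study's methods, HISAT2 2.0 in the submitters' processing notes, with build Sscrofa10.2) and estimated expression with StringTie (1.3.0 in those notes) and Ballgown. They deposited FPKM per locus. No counts are used here, so the number of reads behind a gene's value is unknown. The study gives mapped reads for the control libraries only. Strand handling was not given, and no scaling beyond FPKM is stated. Of 41264 loci, 17650 (42.8%) have no gene name and were not used, and the others were summed by gene name (17049). No value column was left unmatched. Of 6232 genes named by Ensembl identifier, 2139 received a symbol from the pig reference table.

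Genes with a mean of at least 0.5 FPKM were tested with limma 3.58.1 (R 4.3.3; lmFit, eBayes with trend) on log2(FPKM + 1), with age and maternal diet as terms, and p was adjusted by Benjamini-Hochberg over all genes tested. The interaction was a separate model, and differences per set of litters come from a model of the 4 groups. Replicates are separate piglets according to the submitters. Whether numbers shared by groups pair the samples was not given, so the reported fit has no pairing term.

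The comparison, the 20 pathway and 14 marker lists and the naming rules were chosen with earlier results of these data known. Named were called genes with the same sign in both sets and no overlap (up to 12 in each direction), up to 4 called members of each list or its 2 most abundant, the called genes with the largest change in mean FPKM, and 5 genes of opposite sign with the smallest interaction P. As few genes were called, the same rule with the study standard, up to 4 members per pathway list with the smallest P, genes at the standard in each set of litters, 7 further lists and further list members named in the text were added after values were seen. Alternatives were median-of-ratios and quantile scaling, a smaller pseudocount (0.1), testing genes without a filter or from 5 FPKM upwards, eBayes without a trend, a linear model with Ballgown's library-size covariate, single loci, position and muscle scores as covariates, a replicate block, no diet term and leaving out each library. Dropping W_Res2 with W_Res3, both scores together and dropping the 4 libraries of lowest position score were added later. Some members of the lists are not reported here by name. They count in the totals.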

Additional observations from a re-analysis of the deposited data

Results flagged for a closer look

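In 24 of the 306 groups formed by 153 named genes and 2 ages, 1 of the 6 libraries stood apart from the others by Dixon's ratio, its gap to the nearest library divided by the range of the group on the log2(FPKM + 1) scale, which was above Dixon's 95% critical value. Chance puts about 1 in 20 groups past it. PW_Con3 was the library in 7 of them at 28 days. It was the lowest for ENPP3 (3.06 FPKM, ratio 0.727), ACSL3 (0.634), ACE (0.741), SLC6A19 (72.6 FPKM, 0.839), SLC15A1 (0.687) and VIL1 (545 FPKM, 0.735), and the highest for DAB2 (0.775). W_Res2 was the library in 5 groups at 21 days. It was the lowest for MISP (56.3 FPKM, 0.720) and OASL (2.59 FPKM, 0.643) and the highest for TSHZ2 (0.633), CYP1A1 (6.33 FPKM, 0.702) and C1QC (0.686). PW_Con2 was the highest for TSHZ2 (0.754) and CA2 (0.760) and the lowest for LCN2 (0.632) and ZFP36 (0.705).

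PW_Res1 was the lowest for TCIRG1 (7.33 FPKM, 0.626), where it still lay above every library at 21 days, and the highest for ENSSSCG00000030631 (0.638). W_Con1 was the lowest for PRDX2 (0.678) and RETSAT (0.723). The others were W_Con2 for IGKV-7 (lowest, 0.780), W_Con3 for PECAM1 (lowest, 0.652), W_Res1 for DHX58 (highest, 0.659) and PW_Res3 for CELA2A (highest, 0.694).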

How the results depend on the processing

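The counts, and the values of some single genes, depended on the processing. The 8 genes with an adjusted p under 0.05 for age became 18 at a minimum of 5 FPKM, 92 after median-of-ratios and 29 after quantile scaling, 4 without the diet term, and 0 with no filter, with the smooth muscle covariate, without W_Res replicates 2 and 3 and without the 4 libraries of lowest position score. It was 6 with the library-size covariate, none of them among the 8, and 6 with both scores, 1 of them among the 8. With 1 library left out the count was 0 to 40: 0 without W_Con2, W_Res2, PW_Con2, PW_Res2 or PW_Res3, 1 without W_Con3 or PW_Con1, 5 without W_Con1, 10 without W_Res3, 21 without PW_Res1, 26 without PW_Con3 and 40 without W_Res1. The paired fit, a replicate block, gave 0 called and 178 genes at the study standard. Whether same-numbered libraries came from the same litter was not given. The correlation of deviations in the 6 same-numbered pairs was -0.257 to 0.109, which with 3 piglets per group cannot settle it. The 173 genes at the study standard were 539 with a pseudocount of 0.1, 115 at a minimum of 5 FPKM, 284 with both scores as covariates and 162 to 241 with 1 library left out. Interaction calls were 1 with no filter, 3 without W_Res replicates 2 and 3 and 0 to 2 with 1 library left out. The genes at the standard in control litters kept their sign in resveratrol litters in 50.3% of cases with the library-size covariate and 55.8% to 72.9% with 1 library left out. For those of resveratrol litters the share in control litters was 58.4% at a minimum of 5 FPKM, 58.9% after quantile scaling and 44.5% to 71.0% with 1 library left out. The cause of these shifts was not tested. Of 153 named genes, 31 changed sign in some setting, none of them with an unadjusted P under 0.05 in the reported fit.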
